A study of Rattus norvegicus with 36 samples.

Results

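Nuclear receptors are transcription factors, most of which are switched by a small lipid-soluble ligand, and the livers of 36 rats were examined for 41 genes that encode them. The clock and thyroid hormone receptors were not part of the list. A gene was taken as measured where at least 1 probe set of the array was annotated with that gene alone. This held for 38 of the 41 genes, which 62 probe sets represented, out of 14217 genes measured in the series. No such probe set existed for Nr2e3, Nr6a1 and Hnf4g. The 22 genes with 1 probe set are described by it, and the 16 genes with several, up to 5, by whichever probe set had the highest average across the arrays.

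The rats were male Harlan Sprague Dawley animals, 7 weeks of age at the start of the study. They were given TBBPA-DBPE, the bis(2,3-dibromopropyl ether) of the flame retardant tetrabromobisphenol A, in corn oil by gavage for 5 days, or corn oil alone, and left-lobe liver RNA was taken 1 day after the last dose. Vehicle animals (0 mg/kg) were set beside 5 doses, of which 943 mg/kg was the highest and 0.1 mg/kg the lowest, with 0.94, 9.4 and 94.3 mg/kg between them. Each of the 6 groups had 6 animals, with 1 array per animal. Values are log2 expression values made with RMA, in which a difference of 1 is a doubling. Each animal is a replicate, and the number of animals limits the precision of every comparison.

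Receptors of this superfamily bind short DNA motifs as monomers, homodimers or heterodimers with a retinoid X receptor, and recruit coactivators or corepressors. In the liver they set bile acid, lipid, glucose and drug metabolism: FXR (Nr1h4) senses bile acids, PXR (Nr1i2) and CAR (Nr1i3) sense foreign compounds, PPARalpha (Ppara) senses fatty acids, and HNF4alpha (Hnf4a) maintains hepatocyte identity. Because many of them act through ligands, the RNA level of a receptor and its activity are separate quantities. The comparisons of dose with vehicle ask whether the compound altered the RNA of any receptor.

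The arrays were alike. The correlation of any pair of arrays over 31042 probe sets lay between 0.989 and 0.997. All 13 measured hepatocyte markers were above the background limit in every group, and the mean of these markers per animal lay between 12.64 and 12.80. Markers of Kupffer cells (9 of 9), endothelium (10 of 10) and stellate cells and fibroblasts (12 of 12) were above the limit on average as well, so the values are those of whole liver. In such samples, fewer cells of a type and less RNA per cell cannot be told apart.

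RMA values carry no detection call, so a limit was set from 78 probe sets of 64 genes that are specific to tissues other than liver. The 95th percentile of their means was 4.77, which 47.8% of all probe sets exceeded. By this limit 24 of the 38 measured receptors were above background, and each of the 24 was above it in the means of all 6 groups. The other 14 receptors were not above it, and their values carry little information on expression. Apart from this limit, levels of different probe sets were not compared with each other, since probes differ in how strongly they bind. The limit is itself subject to such differences.

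**Figure D1:**
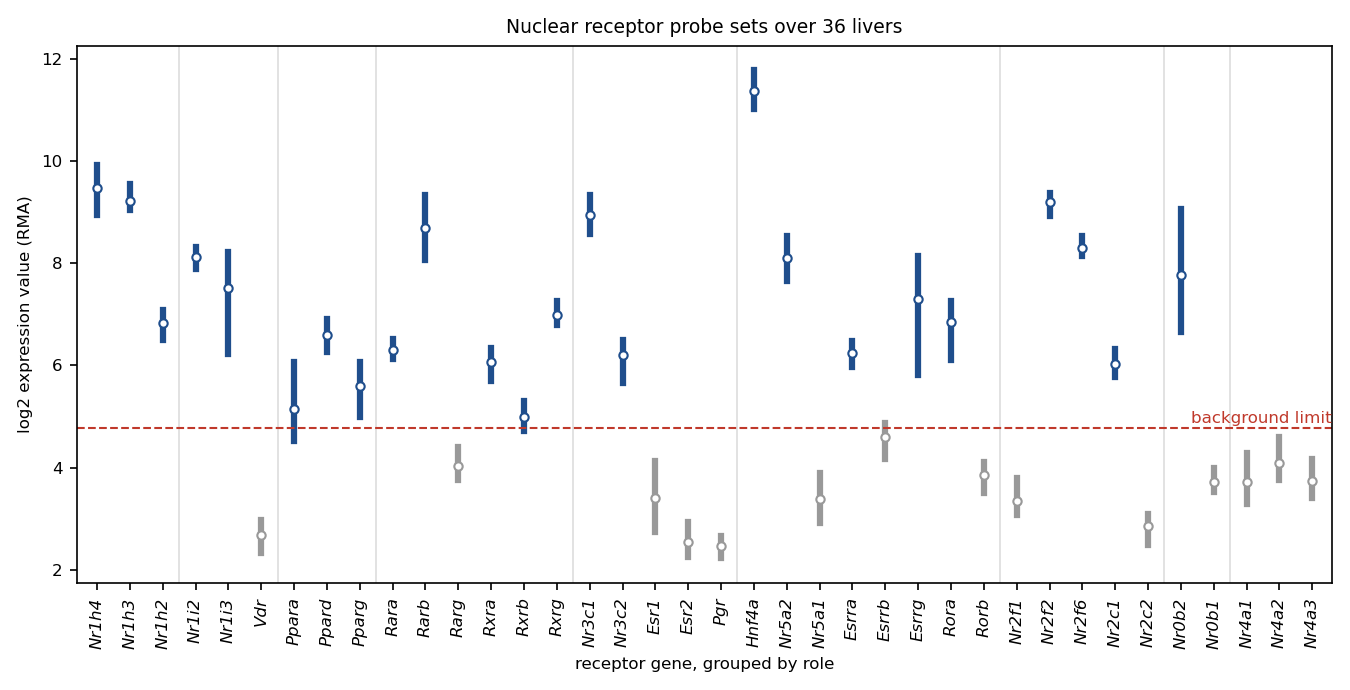
Range (bar) and median (open circle) of the log2 expression value over 36 livers for each of the 38 measured receptors, grouped by role, with the background limit of 4.77 as a dashed line. Blue bars are the 24 receptors with a mean above the limit, grey bars the 14 others; heights of different genes are not comparable, since each has its own probe set.

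The receptors for bile acids and oxysterols were all 3 above background. Nr1h4, the bile acid receptor FXR, had values from 9.27 to 9.93 with a median of 9.48 in vehicle livers and from 9.15 to 9.90 with a median of 9.47 at 943 mg/kg. The animals of these groups overlapped almost completely. Nr1h3, the oxysterol receptor LXRalpha of hepatocytes, ranged from 9.05 to 9.28 in vehicle livers and from 9.06 to 9.46 at 943 mg/kg, with a median of 9.22 in both. Nr1h2, the broadly expressed LXRbeta, stayed between 6.51 and 7.09 over all 36 animals.

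Of the xenobiotic sensors and the vitamin D receptor, which are close relatives, Nr1i2 and Nr1i3 were above background and Vdr was not. Nr1i2, the pregnane X receptor, had values from 7.88 to 8.32 with a median of 8.16 in vehicle livers. At 943 mg/kg its values lay between 8.05 and 8.32, again with a median of 8.16, and the difference in means was 0.04 ± 0.067 (SE, n = 6 per group). The 95% interval of that difference ran from -0.10 to 0.17, a narrow range around no change. Nr1i3, the constitutive androstane receptor, was far less even. Its values lay between 6.90 and 8.21 with a median of 7.43 in vehicle livers, and between 6.23 and 7.91 with a median of 7.38 at 943 mg/kg. Its difference at 943 mg/kg was -0.21 ± 0.254, with a 95% interval from -0.72 to 0.31, so that a fall of 1.5-fold lay within the interval.

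All 3 fatty acid receptors were above background, Ppara only just. Ppara, the receptor that drives fatty acid oxidation and is the target of peroxisome proliferators in rodents, exceeded the limit on 29 of 36 arrays, so its differences may be compressed. Its values ran from 4.53 to 6.08 with a median of 5.11 in vehicle livers and from 4.84 to 5.44 with a median of 5.24 at 943 mg/kg. Ppard, the widely expressed PPARdelta, was lowest at 0.94 mg/kg, where the animals lay between 6.27 and 6.68 with a median of 6.36, against 6.50 to 6.70 with a median of 6.61 in vehicle livers. These groups overlapped through 1 animal at the dose, and the difference of -0.19 ± 0.078 had an adjusted p of 0.999 in limma. At 943 mg/kg its median was 6.75. Pparg, the adipogenic PPARgamma, had values from 5.45 to 5.88 in vehicle livers and from 5.26 to 5.66 at 943 mg/kg, which overlapped, with a difference of -0.22 ± 0.11 (adjusted p = 0.868).

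Among the retinoid receptors, 5 of 6 were above background and Rarg was not. Rxrb was only just above the limit, with a mean of 5.00 and 35 arrays over it, so its differences may be compressed. Rara and Rarb bind retinoic acid, and the RXR members are the shared heterodimer partners of the receptors above. Rxra, the main RXR of hepatocytes, had values from 6.02 to 6.23 in vehicle livers and from 5.81 to 6.06 at 9.4 mg/kg, with medians of 6.12 and 5.96. The groups overlapped, and the difference of -0.17 ± 0.082 had an adjusted p of 0.980. Rxrb ranged from 4.89 to 5.31 in vehicle livers and from 4.84 to 5.01 at 943 mg/kg, with a difference of -0.10 ± 0.069 (adjusted p = 0.875). That difference was -0.04 without vehicle replicate 1 and -0.06 with array weights.

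Rarb, the retinoic acid receptor beta, is itself a classical retinoic acid target, and its values ran from 8.18 to 8.99 with a median of 8.65 in vehicle livers and from 8.14 to 9.33 with a median of 8.75 at 943 mg/kg. Its promoter window is shown because it contains the repeat that retinoic acid receptors bind. RefSeq promoter windows of 300 bases in GRCr8, from 250 before to 50 after the start of the gene, were at hand for 33 of the 38 receptors. They were searched on both strands for the receptor half-site AGGTCA, for TCAAGG, the core of NR5A binding sites, and for GGTTCA followed after 5 bases by AGTTCA. The last motif was added after the Rarb window had been read. In the window below, capitals mark this direct repeat with the bases between its parts, which starts at base 25 after the start of the gene. It was found in 2 of 27457 windows of all genes, and in 1 of the 33 receptors.
Rarb, chr15:11336142-11336441, plus strand: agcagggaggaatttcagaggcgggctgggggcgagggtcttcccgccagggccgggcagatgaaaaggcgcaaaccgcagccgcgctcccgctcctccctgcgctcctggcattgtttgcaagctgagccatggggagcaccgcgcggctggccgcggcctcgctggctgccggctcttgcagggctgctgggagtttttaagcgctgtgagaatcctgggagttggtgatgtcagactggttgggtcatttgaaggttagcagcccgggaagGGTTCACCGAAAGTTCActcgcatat

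Of the steroid receptors, Nr3c1 and Nr3c2 were above background, and Esr1, Esr2 and Pgr were not. Nr3c1, the glucocorticoid receptor, had values from 8.57 to 9.33 with a median of 9.11 in vehicle livers and from 8.66 to 9.21 with a median of 8.91 at 943 mg/kg. The difference was -0.09 ± 0.12 and the animals overlapped. Nr3c2, the mineralocorticoid receptor, ranged from 5.66 to 6.51 over the 36 animals. Esr2, the estrogen receptor beta, is an example of a probe set below the limit: its values lay between 2.51 and 2.77 in vehicle livers and between 2.31 and 2.57 at 9.4 mg/kg. These values overlapped, their difference was -0.24 ± 0.093 (adjusted p = 0.980), and no level of the gene can be read from them.

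Of the 8 measured HNF4, NR5A, ERR and ROR receptors, 5 were above background, and Nr5a1, Esrrb and Rorb were not. Hnf4a gave the smallest p of any receptor at any dose. Its values ran from 11.13 to 11.70 with a median of 11.29 in vehicle livers and from 11.28 to 11.78 with a median of 11.66 at 94.3 mg/kg. At the dose, 5 of the 6 animals were above 5 of the 6 vehicle animals, and the groups overlapped. The difference was 0.29 ± 0.10, with a 95% interval from 0.09 to 0.49 and an adjusted p of 0.537. At 943 mg/kg the median was 11.35 and the difference -0.02 ± 0.10. The other probe sets of Hnf4a, both above background, differed at 94.3 mg/kg by 0.11 and 0.09, and the mean over the probe sets gave 0.16.

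Esrrg, the estrogen-related receptor gamma that in mice is induced by fasting, had values from 6.45 to 8.12 with a median of 6.93 in vehicle livers. Its values were between 7.16 and 7.90 with a median of 7.64 at 9.4 mg/kg, within the range of the vehicle animals, and the difference was 0.52 ± 0.289 (adjusted p = 0.980). The second probe set of Esrrg, also above background, varied less with dose. Its limma F test over the doses had an unadjusted p of 0.724, against 0.187 for the first. The slopes per step of dose were 0.024 and 0.075. Esrra, the related receptor of mitochondrial genes, differed at 0.1 mg/kg by 0.13 ± 0.066 (adjusted p = 0.889), with animals from 5.98 to 6.48 in vehicle livers and from 6.16 to 6.48 at that dose. Rora, a receptor of lipid and clock genes, ranged from 6.11 to 7.27. Its probe sets disagreed: both were above background, their correlation over animals was -0.17, and at 94.3 mg/kg they differed from vehicle by -0.12 and 0.22. No statement on Rora therefore rests on more than 1 probe set.

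Nr5a2, the liver receptor homolog LRH-1 that acts on bile acid genes, ranged from 7.66 to 8.53 over the 36 animals. With the probe set used, it differed from vehicle by at most 0.11. Its promoter window and that of Esrrg are shown because these genes are the strongest positive and negative partners of Rarb in the comparison of animals below. Capitals mark AGGTCA, which occurs in the Nr5a2 window at base -134 and at base 4, counted from the start of the gene with no base 0. The Esrrg window held none of the motifs searched.
Nr5a2, chr13:50984889-50985188, minus strand: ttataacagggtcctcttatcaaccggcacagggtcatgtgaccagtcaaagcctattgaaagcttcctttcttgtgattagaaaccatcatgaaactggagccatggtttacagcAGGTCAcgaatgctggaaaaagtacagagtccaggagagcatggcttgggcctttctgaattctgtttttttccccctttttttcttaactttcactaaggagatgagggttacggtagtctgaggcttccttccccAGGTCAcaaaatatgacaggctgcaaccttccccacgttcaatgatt
Esrrg, chr13:101744485-101744784, plus strand: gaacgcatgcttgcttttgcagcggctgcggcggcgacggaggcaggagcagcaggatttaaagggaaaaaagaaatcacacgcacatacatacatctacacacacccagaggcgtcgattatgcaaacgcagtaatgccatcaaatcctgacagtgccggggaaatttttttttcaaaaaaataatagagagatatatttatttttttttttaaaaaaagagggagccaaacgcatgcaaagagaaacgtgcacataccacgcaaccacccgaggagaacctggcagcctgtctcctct

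The half-site AGGTCA was present in 3 of the 33 receptor windows (9.09%), those of Nr0b1, Nr5a2 and Rarg, against 15.7% of all 27457 windows. A match of letters is a description of the window and does not show binding.

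Of the COUP, testicular and other orphan receptors, Nr2f2, Nr2f6 and Nr2c1 were above background, and Nr2f1 and Nr2c2 were not. Nr2f2 (COUP-TFII) kept within 8.92 to 9.38 and Nr2f6 within 8.14 to 8.53 over all animals. Nr2f1 differed at 943 mg/kg by 0.19 ± 0.089 (adjusted p = 0.865), with animals from 3.13 to 3.56 in vehicle livers and from 3.18 to 3.80 at the dose, all under the background limit. Without replicate 4 of that dose the difference was 0.13.

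Nr0b2 encodes SHP, a receptor without a DNA-binding domain that is induced by FXR and represses bile acid synthesis. Its values ran from 7.24 to 9.06 with a median of 7.55 in vehicle livers and from 7.53 to 8.69 with a median of 8.07 at 943 mg/kg. The groups overlapped over most of their range, and the difference was 0.34 ± 0.327, with a 95% interval from -0.33 to 1.00 and an adjusted p of 0.912. The relative Nr0b1 was not above background and differed at 94.3 mg/kg by -0.14 ± 0.071 (adjusted p = 0.731). The Nr0b2 window is shown because the gene was the most variable receptor, and its capitals mark TCAAGG, found at bases -69 and -36. That motif was present in 3 of 33 receptor windows (9.09%) and in 14.6% of all windows.
Nr0b2, chr5:151062910-151063209, plus strand: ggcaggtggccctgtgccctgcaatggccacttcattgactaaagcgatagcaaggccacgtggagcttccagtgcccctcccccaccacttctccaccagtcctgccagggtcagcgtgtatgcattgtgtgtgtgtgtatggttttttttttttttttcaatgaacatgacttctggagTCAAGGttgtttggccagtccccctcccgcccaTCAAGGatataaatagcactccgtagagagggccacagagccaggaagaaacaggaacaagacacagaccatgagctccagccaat

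None of the 3 NR4A receptors, immediate early genes that are induced by many stimuli, was above background in any group. Nr4a1 ranged from 3.29 to 4.28 in vehicle livers and from 3.35 to 3.73 at 0.94 mg/kg. The difference was -0.21 ± 0.11 (adjusted p = 0.999), and -0.10 without vehicle replicate 5.

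**Figure D2:**
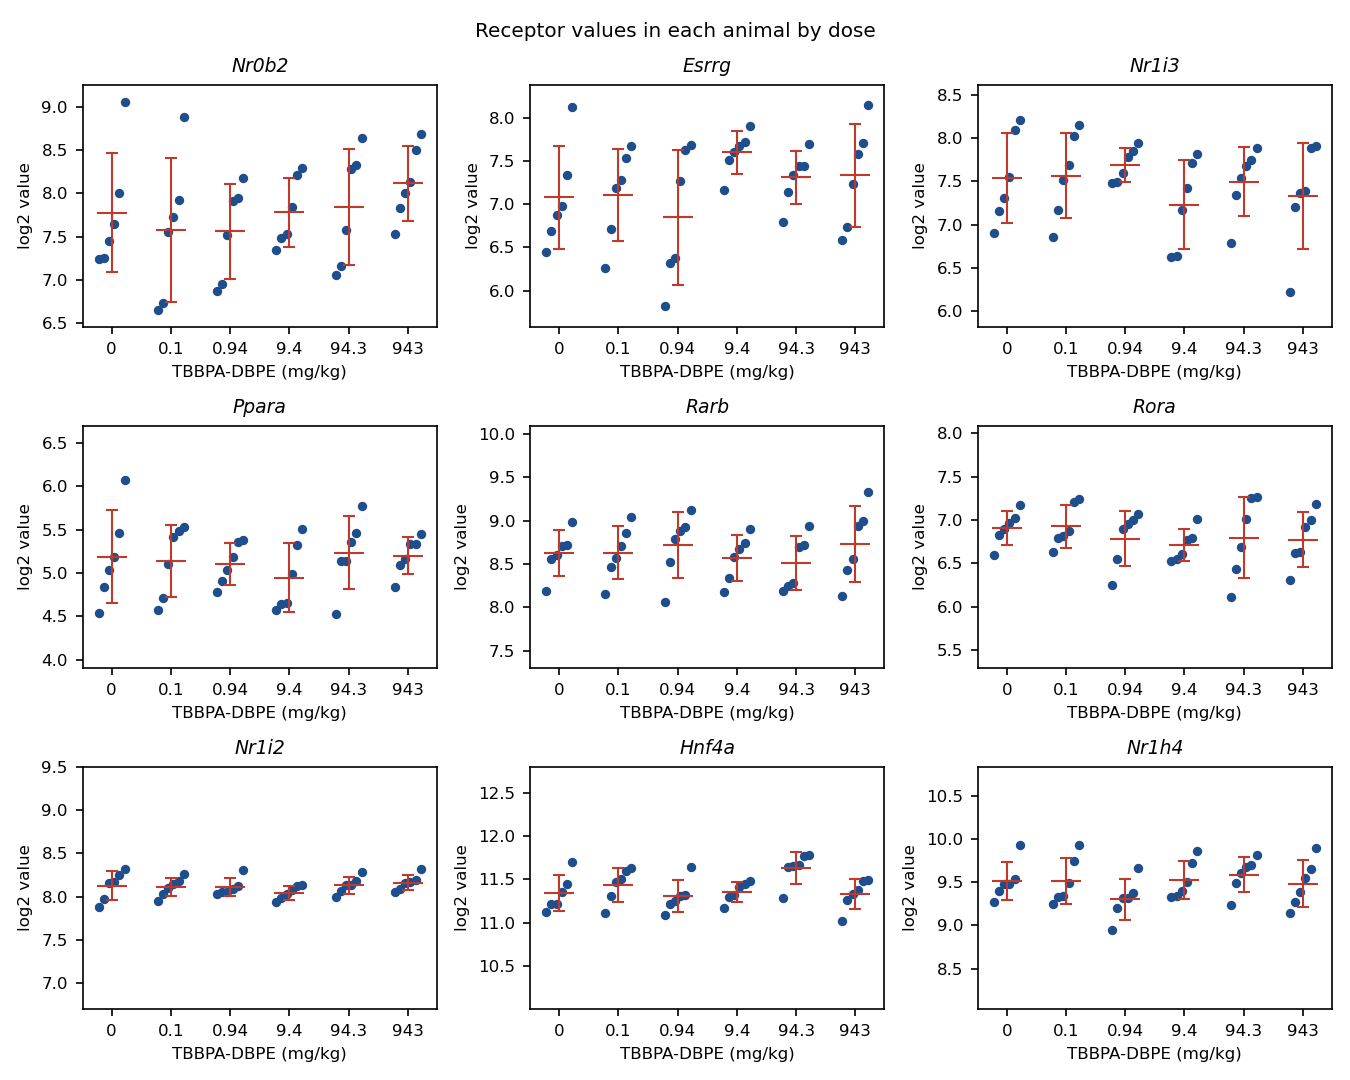
Log2 expression value of 9 receptors in each animal (points) by dose of TBBPA-DBPE, with the group mean and SD (red, n = 6 animals per group); every panel spans the same height on the log2 scale. Nr1i2 stays within 7.88 to 8.32, while Nr0b2, Esrrg and Nr1i3 span 2.41, 2.32 and 1.98 on the log2 scale over the 36 animals.

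No receptor passed the test against vehicle at any dose. In the limma fit of all 31042 probe sets with Benjamini-Hochberg adjustment, 0 of the 38 receptors passed at each of the 5 doses, in the F test over the doses and in the trend over dose rank. The share of all probe sets that passed was 0% in each of these tests. At an unadjusted p under 0.05, Esr1 and Esr2 were lower at 0.1 mg/kg, against a background of 2.62% of probe sets that were lower and 3% that were higher. At 0.94 mg/kg Ppard and Esr2 were lower, against 2.06% lower and 2.1% higher among all probe sets. At 9.4 mg/kg Esr2 and Pgr were lower, against 2.64% lower and 2.21% higher. At 94.3 mg/kg Hnf4a was higher, against 3.68% higher and 3.22% lower. At 943 mg/kg Nr2f1 was higher, against 3.07% higher and 2.67% lower. These were 1 or 2 of 38 receptors per dose, and only Ppard and Hnf4a among them were above the background limit.

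The F test over the doses had an unadjusted p under 0.05 for Esr2, Ppard and Hnf4a, 3 of 38 receptors against 5.35% of all probe sets, with adjusted p from 0.916 to 0.918. The dose trend had such a p for 0 of 38, against 5.68% of all probe sets. Its smallest adjusted p among receptors was 0.875, for Nr2f1. These counts used 1 probe set per receptor. The second probe set of Rora had an unadjusted trend p of 0.045 in limma, with a slope of 0.034 against -0.033 for the first. The second probe set of Rxrg, under the background limit, had an unadjusted F test p of 0.030. No receptor had all 6 animals of a dose outside the range of the 6 vehicle animals. Among all probe sets this occurred for 0.235%, 0.206%, 0.184%, 0.296% and 0.261% in order of rising dose.

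The intervals show how large a change remained possible. For the 24 receptors above background, a 1.5-fold change in either direction lay outside the 95% interval in 22 receptors at 0.1 mg/kg, 21 at 0.94 mg/kg, 20 at 9.4 mg/kg, 22 at 94.3 mg/kg and 21 at 943 mg/kg. For 20 of the 24 this held at all 5 doses, among them Nr1h3, Nr1h4, Nr1i2, Nr3c1, Hnf4a and Rxra. The exceptions were Nr0b2 and Esrrg at every dose, Nr1i3 at 0.94, 9.4 and 943 mg/kg, and Ppara at 9.4 mg/kg. Among all probe sets above background the same held for 96.2% to 97.2% of them, depending on dose. A 2-fold change was excluded for all 24 receptors except Esrrg at 9.4 mg/kg. For Nr0b2 this held only just, since its widest interval reached 0.999. All these intervals used 1 probe set per receptor. Nr5a2 is among the 20 by a probe set with an SD within groups of 0.22, and another above background had 0.51. Rxrb is among the 20 as well, but it lay close to the background limit. The median difference of the 24 receptors was -0.01 at 943 mg/kg, with 11 higher and 13 lower, beside a median of -0.01 over all probe sets above background.

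**Figure D3:**
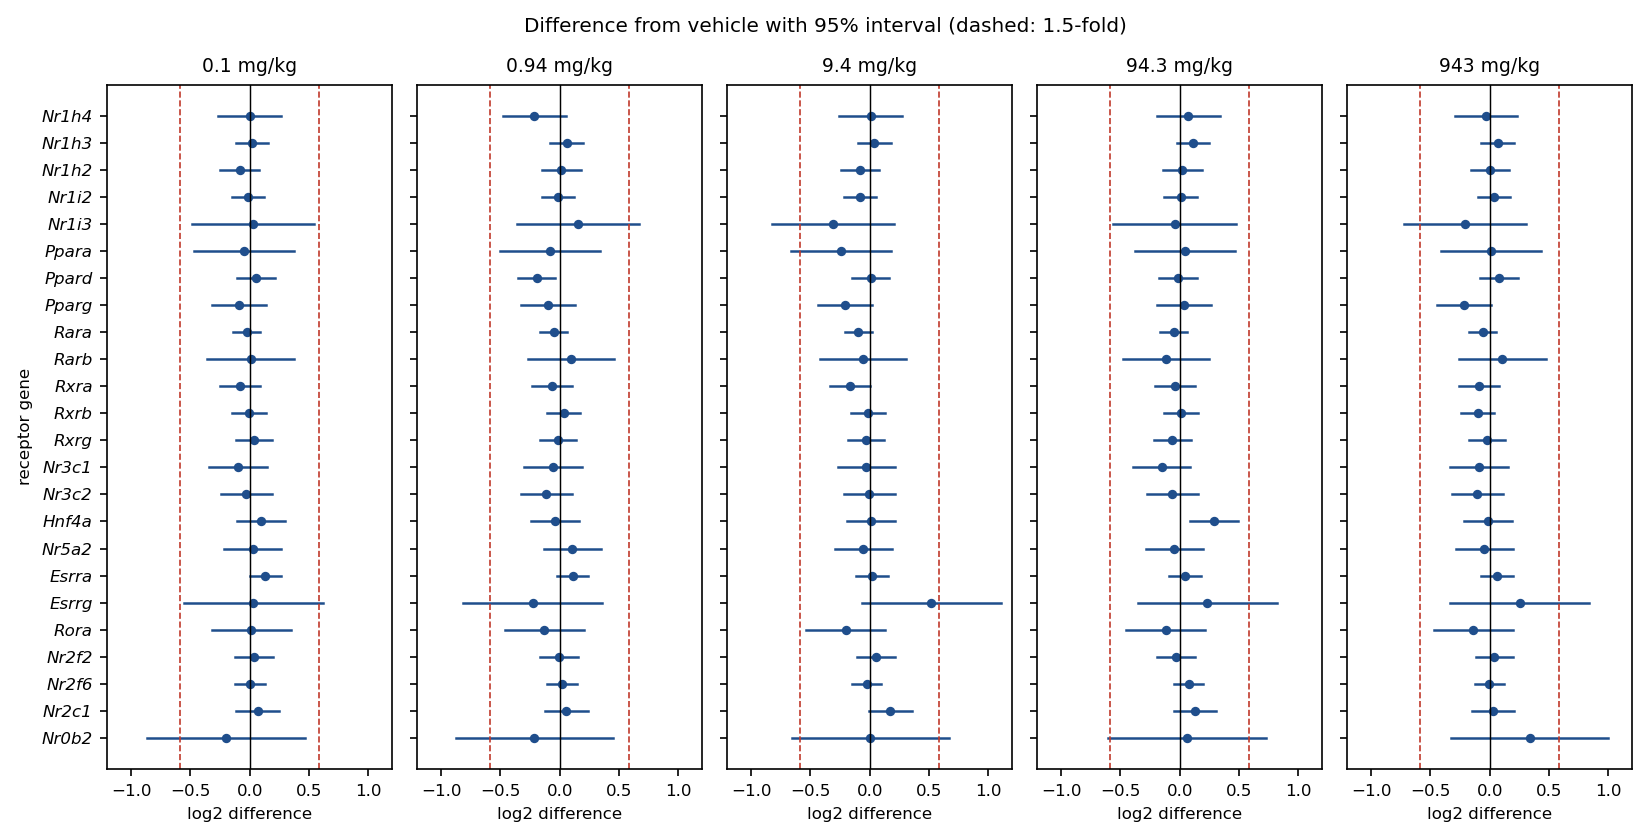
Difference in log2 value from vehicle (point) with its 95% interval (line) for the 24 receptors above background at each of the 5 doses; the dashed lines mark a 1.5-fold change up or down, and each group has 6 animals. Most intervals lie between the dashed lines, and those of Nr0b2 and Esrrg cross a dashed line at every dose.

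Genes around the receptors were described from lists of known targets and partners. None of their members passed the test at any dose. Of the coregulators, which receptors recruit to repress or activate genes, 4 of 17 were higher and 13 lower at 943 mg/kg, with a median difference of -0.06, beside a median of 0.0018 over all genes. Hdac3, a histone deacetylase of the corepressor complex, differed there by 0.15 ± 0.054 and Tbl1xr1, a corepressor exchange factor, by -0.23 ± 0.095 (adjusted p = 0.865 each). PPARalpha targets were lower in 12, 14, 11 and 12 of 15 at 0.1, 0.94, 9.4 and 94.3 mg/kg, in that order. At 943 mg/kg they were lower in 14 of 15, with a median of -0.08. The fatty acid omega-hydroxylase Cyp4a1 differed by -0.24 ± 0.16 (adjusted p = 0.875). PXR and CAR targets were lower in 9 of 15 with a median of -0.04, and FXR targets in 8 of 11 with a median of -0.07. The FXR list holds Nr0b2 itself, which FXR induces, and Cyp7a1, which SHP represses. A count of lower genes therefore has no single direction for FXR. Cyp8b1 is in both the FXR and the HNF4A list. LXR targets were higher in 8 of 12, with a median of 0.02, but lower in 9 of 12 at 0.1 mg/kg and in 8 of 12 at 0.94 mg/kg. The coregulators were split at both of these doses, with 8 higher and 9 lower. HNF4A targets were lower in 8 of 11 with a median of -0.04, and glucocorticoid receptor targets in 7 of 13 with a median of -0.004. All 5 dose comparisons share the same vehicle animals, so these lists are not independent between doses. Kupffer cell markers differed as well: all 9 were lower than in vehicle livers at 0.1 and 0.94 mg/kg, all 9 were higher at 9.4 mg/kg, 8 of 9 were higher at 94.3 mg/kg, and 8 of 9 were lower at 943 mg/kg, none past the test. Their mean per animal ranged from 7.71 to 8.56 in vehicle livers and from 7.85 to 8.52 at 943 mg/kg, and their part in the list differences was not tested.

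Some receptors differed widely between animals that had received the same dose. Within groups, Nr0b2 had an SD of 0.61, which exceeded that of 99.5% of all probe sets. Esrrg followed with 0.54 (percentile 99.3), Nr1i3 with 0.48 (99.0), Ppara with 0.39 (98.3), Rarb with 0.33 (97.4) and Rora with 0.30 (96.5). Between the lowest and the highest of 36 animals, Nr0b2 spanned 5.30-fold, Esrrg 4.99-fold and Nr1i3 3.95-fold. At the other end, Rara had an SD of 0.089 (percentile 5.5), Nr2f6 of 0.10 (10.3), Nr1i2 of 0.11 (18.0) and Nr1h3 of 0.11 (19.6). PXR and CAR, which share ligands and targets, thus stood at opposite ends, with spans of 1.36-fold and 3.95-fold, and their correlation over animals was 0.015. This ranking used 1 probe set per gene and depended on it. Another probe set of Nr5a2 above background had an SD of 0.51 (percentile 99.3), against 0.22 (89.3) for the one used. Other probe sets above background gave 0.16 for Nr2f6 (64.8), 0.18 for Rora (75.4) and 0.37 for Esrrg (98.0).

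To see which receptors varied together, the group means were removed and the 24 receptors above background were correlated over the 36 animals, which gave 276 pairs. This family of pairs was chosen after the values had been seen. Of these, 21 pairs (7.61%) had an adjusted p under 0.05 in a two-sided permutation test with 100000 resamples within groups, 15 with positive and 6 with negative r. By rank correlation 17 pairs passed, and 16 passed by both. The share among pairs of other genes was not computed, so these counts do not set receptors apart from other genes. Nr3c1 took part in 6 of the 21 pairs, and Nr1i2, Nr5a2 and Rarb in 4 each. Nr0b2, Hnf4a, Rxra, Rxrg, Rara, Ppard and Esrra took part in none.

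The strongest pair was Rarb with Esrrg. Animals with high Rarb had low Esrrg, with r = -0.78 and rho = -0.82 (permutation p = 1e-05, the smallest that the resamples can give, adjusted p = 0.00276), and the sign was the same in 6 of 6 groups. Without the 2 animals farthest from the median of Rarb, r was -0.73. The second probe set of Esrrg, which correlated with the first at r = 0.94, gave r = -0.75. Rarb was also inverse to Nr1h4 (r = -0.73, rho = -0.63, permutation adjusted p = 0.00276) and to Nr3c1 (r = -0.69, rho = -0.71, permutation adjusted p = 0.00276). It rose with Nr5a2 from animal to animal (r = 0.69, rho = 0.71, permutation adjusted p = 0.00552), and the other probe sets of Nr5a2 gave r = 0.68 and 0.47. All 3 of these pairs had the same sign in 6 of 6 groups.

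**Figure D4:**
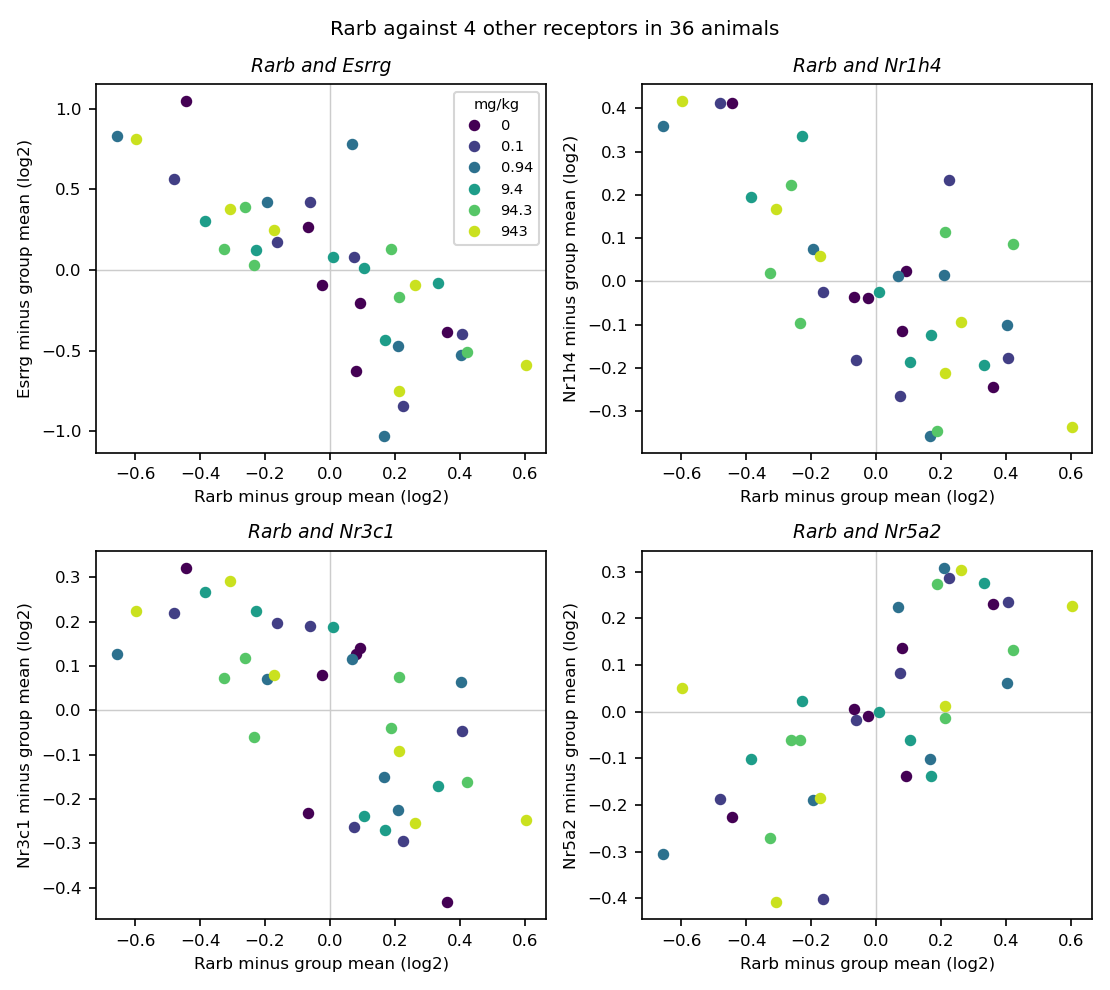
Log2 value of Rarb minus its group mean (horizontal) against the same quantity for Esrrg, Nr1h4, Nr3c1 and Nr5a2 (vertical) in 36 animals, coloured by dose. Esrrg, Nr1h4 and Nr3c1 fall as Rarb rises (r = -0.78, -0.73 and -0.69), Nr5a2 rises (r = 0.69), and the animals of the 6 dose groups are intermixed.

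Around these pairs the receptors formed opposed sets. Nr3c1 rose with Esrrg (r = 0.62, rho = 0.63) and Nr1h4 (r = 0.60, rho = 0.60), and was inverse to Nr1i2 (r = -0.60, rho = -0.56) and Nr5a2 (r = -0.58, rho = -0.55). Nr1i2 rose with Ppara (r = 0.61, rho = 0.52), Nr2f2 (r = 0.59, rho = 0.56) and Nr5a2 (r = 0.57, rho = 0.55), and Nr2f2 with Nr5a2 (r = 0.62, rho = 0.57). The adjusted permutation p of these 8 pairs lay between 0.00607 and 0.0134 for r. The rank correlation of Nr1i2 with Ppara had an adjusted permutation p of 0.0614, and its r was 0.47 with an adjusted p of 0.102 without the 2 animals farthest from the median of Nr1i2. Some of these values depended on the probe set. The second probe set of Nr2f2 that was above background gave r = 0.31 with Nr1i2 and 0.39 with Nr5a2, and one of the other probe sets of Nr5a2 gave 0.27 with Nr2f2 and -0.33 with Nr3c1.

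Of the other 9 of the 21 pairs, those among Nr1i3, Rxrb, Nr1h2, Nr1h3, Nr2f6, Rora and Nr2c1 shared no receptor with these sets. Nr3c1 rose with Nr3c2 (r = 0.53, rho = 0.52, adjusted permutation p = 0.033), and Nr3c2 with Pparg (r = 0.56, rho = 0.61, adjusted permutation p = 0.0118). Nr1h4 rose with Esrrg (r = 0.59, rho = 0.54, adjusted permutation p = 0.0134), and Nr1i3 with Rxrb (r = 0.50, rho = 0.56, adjusted permutation p = 0.045). With replicate number added to the model, Nr1i3 with Rxrb had r = 0.46 (adjusted permutation p = 0.075). With the first principal component of all probe sets removed, it had r = 0.41 (adjusted permutation p = 0.233). Nr1h2, Nr1h3 and Nr2f6 varied together, with r = 0.49 for Nr1h2 and Nr1h3, 0.52 for Nr1h2 and Nr2f6 and 0.55 for Nr1h3 and Nr2f6. Without the 2 animals farthest from the median of the first-named receptor, none of these 3 pairs passed (r = 0.47, 0.43 and 0.45, adjusted permutation p = 0.081, 0.183 and 0.144), nor did Nr1h4 with Esrrg (r = 0.52, adjusted permutation p = 0.053). Nr1h3 was inverse to Rora (r = -0.59, rho = -0.50) and Nr2c1 rose with it (r = 0.53, rho = 0.55), but the second probe set of Rora gave r = 0.07 and -0.07. Without the 2 animals farthest from the median of Nr1h3, its r with Rora was -0.47 (adjusted permutation p = 0.145).

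**Figure D5:**
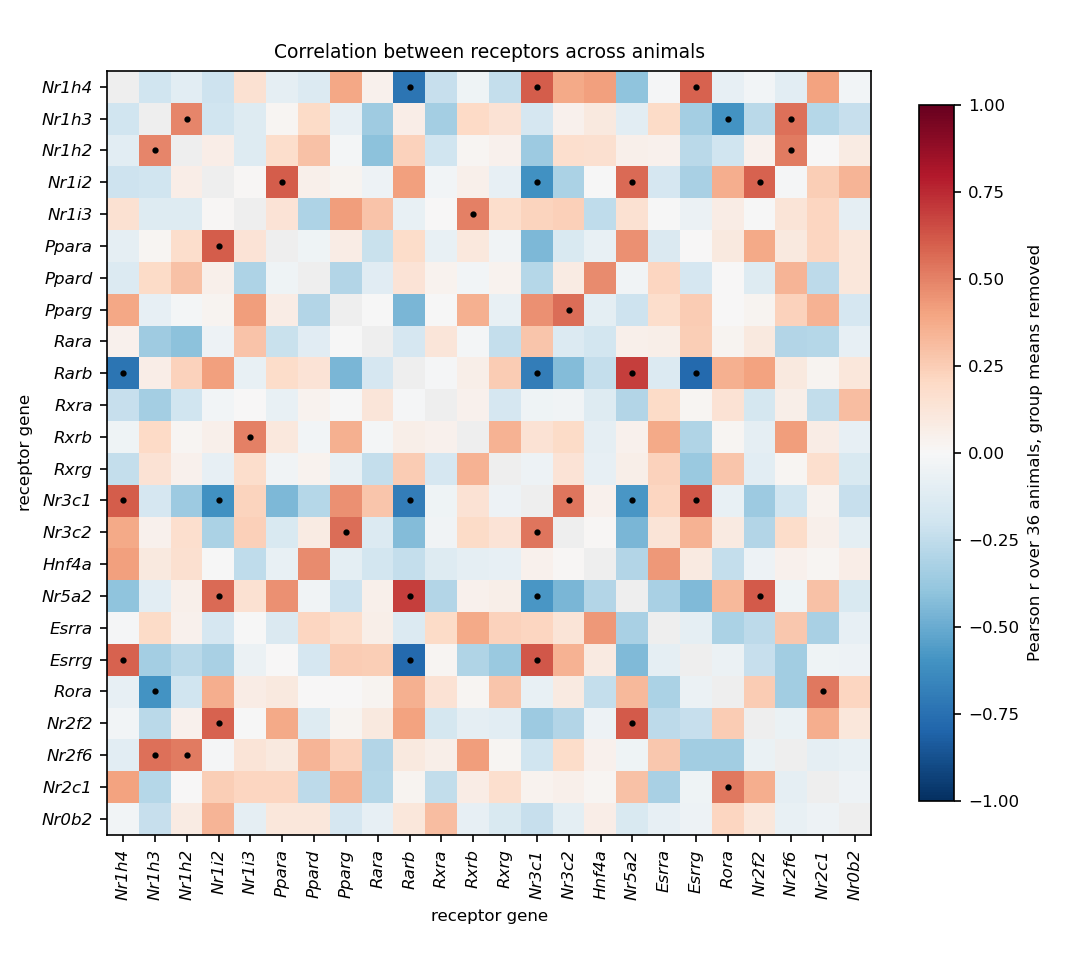
Pearson r over 36 animals, with group means removed, for each pair of the 24 receptors above background (blue negative, red positive), in order of role; black dots mark the 21 pairs with an adjusted permutation p under 0.05. The row of Nr3c1 holds 6 dots and those of Rarb, Nr1i2 and Nr5a2 hold 4 each, and the rows of Nr0b2, Hnf4a and Rxra hold none.

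Measures of the whole array and of other genes moved with some of these receptors. The first principal component of all probe sets, with 10.2% of the variance within groups, correlated with Nr3c1 at r = 0.76, Rarb at -0.67, Pparg at 0.62, Esrrg at 0.57 and Nr1h4 at 0.55. With that component removed, 11 of the 21 pairs still passed. Among them were Rarb with Esrrg (r = -0.65, adjusted permutation p = 0.012), Nr1h4 (r = -0.58) and Nr5a2 (r = 0.75), but not Nr3c1 with Rarb (r = -0.37, adjusted permutation p = 0.303), with Esrrg or with Nr1h4. The mean of the 13 hepatocyte markers correlated with Nr1h4 at r = 0.62, Hnf4a at 0.60, Esrrg at 0.50 and Rarb at -0.51, and that of the Kupffer cell markers with Nr1i2 at -0.51. Hnf4a is itself among the hepatocyte markers. The part of the mix of cells in these pairs was not tested.

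RNA quality was judged by the difference between 3' and 5' probe sets of Gapdh and Actb. The Gapdh difference correlated with Esrra at r = 0.70 and Rxra at 0.55, and the Actb difference with Rxra at 0.61 and Nr1h2 at -0.51, whereas the pairs of Rarb were as large with both differences removed (r = -0.76 with Esrrg, -0.74 with Nr1h4, 0.72 with Nr5a2 and -0.67 with Nr3c1). With them removed, Nr1h2 with Nr1h3 fell from r = 0.49 to 0.29 (adjusted permutation p = 0.358), and Nr2c1 with Rora had r = 0.49 (adjusted permutation p = 0.075). The Gapdh difference had group medians from -0.10 (at 9.4 mg/kg) to -0.03 (at 943 mg/kg) in the 6 groups. The Actb difference had group medians from 1.11 (at 0.94 mg/kg) to 1.22 (at 0.1 mg/kg). Its highest single animals reached 1.41 at 0.1 mg/kg and 1.51 at 0.94 mg/kg.

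Known relations between a receptor and a partner or target were described for 17 pairs. None passed the permutation test after adjustment over the 17 pairs. Among them, the pairs of Nr4a1 with Nr4a2, Nr4a3 and Fos join probe sets that were not above background. Their correlations therefore carry little information. The bile acid receptor and its target Nr0b2 had r = -0.03 over animals (rho = 0.0085, adjusted permutation p = 0.936), and Nr0b2 with Cyp7a1, the bile acid synthesis enzyme that SHP represses, had r = 0.17 (rho = 0.17, adjusted permutation p = 0.609). Nr1i2 with its target Cyp3a23-3a1 had r = -0.25 (rho = -0.14, adjusted permutation p = 0.609), and Ppara with Cyp4a1 had r = -0.07 (rho = -0.04, adjusted permutation p = 0.814). The pair with the smallest p was Nr3c1 with Fkbp5, a glucocorticoid target that encodes a chaperone of the receptor, with r = -0.48 and rho = -0.43 (permutation p = 0.0041, adjusted p = 0.070), inverse in 6 of 6 groups. Nr3c1 with Tat, the tyrosine aminotransferase, had r = 0.41 (rho = 0.40, adjusted permutation p = 0.258). Without the 2 animals farthest from the median of Nr3c1, these 2 pairs had r = -0.50 and 0.48 with an adjusted permutation p of 0.043 each. The 17 pairs included Nr1i2 with Nr1i3 (r = 0.015) and Nr1i3 with Nr3c1 (r = 0.22, adjusted permutation p = 0.609), and the glucocorticoid receptor is known to induce both xenobiotic sensors in human hepatocytes.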

How the data were processed

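Liver RNA of 36 rats was measured on 36 single-colour Affymetrix arrays. The deposited values are log2 expression values that the authors made with RMA (package affy), as the submitters' processing notes state without versions. The values, from 1.43 to 14.43, were used as deposited. No filter on signal was used: apart from 57 array controls, all 31042 probe sets were tested. The probe table names 1 gene for 20826 of them, several for 436 and none for 9780.

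Group means were fitted to all arrays at once in limma 3.58.1 under R 4.3.3 (lmFit, eBayes), with two-sided p-values adjusted by Benjamini-Hochberg over all probe sets and a threshold of 0.05. A moderated F test covered the 5 doses, and the trend is a slope on dose rank from its own fit. Correlations used residuals from group means, permuted within groups (Python 3.11.15, numpy 2.4.6, scipy 1.17.1). Both steps were tested on simulated data. The authors' own R/maanova comparisons of each dose with vehicle, named in the design text, were not used here.

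The members, gene lists and pairs were chosen with earlier results of these data known. Named genes are the 3 receptors with the smallest p at each dose, in the F test and in the trend, the 6 above background with the largest SD within groups, and 9 receptors of liver metabolism. Of the other lists, only Hdac3, Tbl1xr1 and Cyp4a1 are named for having the smallest p of their list at 943 mg/kg. Such members of the remaining lists are not named. Deviations of same-numbered animals of different groups from their group means had a median correlation of 0.0026 over all probe sets (lowest -0.266). The main fits did not pair animals by replicate number, and shared handling of same-numbered animals was not tested. The labels give no scan date, and batches were not tested.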

Additional observations from a re-analysis of the deposited data

Results flagged for a closer look

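Among the 24 receptors above background, the 6 animals of a group were examined for a single animal far from the others, by the gap to its nearest neighbour as a share of the group's range, against Dixon's limit at the 95% level. Of 144 groups, 5 held such an animal, and chance alone flags about 1 group in 20. At 0.94 mg/kg, Nr1i2 was highest in replicate 2 at 8.304, Ppard in replicate 1 at 6.678 and Nr1h3 in replicate 6 at 9.541, in 3 different animals. At 94.3 mg/kg, Hnf4a was lowest in replicate 1 at 11.28, and at 943 mg/kg, Esrra was lowest in replicate 3 at 6.072. Without replicate 1 of 94.3 mg/kg, 11 probe sets passed the test at that dose, none of them of a receptor, and the smallest adjusted p among receptors in the limma fit was 0.227. The cause of these values was not tested.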

How the results depend on the processing

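No receptor passed at a dose, in the F test or in the trend with array weights, the replicate block, median centring, a second quantile normalization, the upper 50% of probe sets, single probe sets per gene or robust estimation with a variance trend. The same held with each animal left out in turn, where the tests at a dose were rerun without each animal of that dose or of vehicle. Fits restricted to 2 groups, run for the doses alone, and the trend on log10 dose or without the highest dose also gave none. With the replicate block, the smallest adjusted p of a receptor was 0.579, at 94.3 mg/kg. The 15 named differences kept their sign in these runs, and 5 moved by over 1.5 times. Those of Hnf4a, Rxrb, Nr2f1 and Nr4a1 are given in the report, and that of Nr1h3 at 94.3 mg/kg was 0.07 without replicate 3 of that dose, against 0.11. The same 24 receptors were above background with the other limits. With the tightest fold limit, 13 receptors had an interval within it at 0.94 mg/kg, against 21 for 1.5-fold. The 276 receptor pairs, and the removal of RNA quality ratios and of the first principal component, were added after seeing the data. Against 21 pairs past the threshold, 21 passed without removing group means (20 of them shared with the first 21), 18 without the 2 farthest animals (15 shared), 20 with the replicate block (19 shared), 26 with the RNA quality ratios removed (19 shared) and 13 with the first principal component removed (11 shared). Of the known relations, 2 passed without the 2 farthest animals and 0 otherwise. The weak correlations changed sign in 10 cases. Nr1h4 with Nr0b2 was 0.024 without removing group means, 0.11 without the 2 farthest animals, 0.037 with the replicate block and 0.24 without the first principal component. Ppara with Rxra was 0.0064 without removing group means and 0.032 without the RNA quality ratios. Nr1h3 with Srebf1 was 0.019 without removing group means, Nr1i2 with Nr1i3 -0.0095 without the RNA quality ratios, and without the first principal component Nr1i3 with Nr3c1 was -0.23 and Pparg with Cidec -0.11. The causes were not tested.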

Other observations

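The most variable receptors varied with genes outside the receptor list. These 5 pairs were picked from all probe sets after their values had been seen, so their size is a description and no test is given. Over the 36 animals, with group means removed, Nr0b2 had r = 0.72 (rho = 0.71) with Igfbp1, an insulin-repressed binding protein of insulin-like growth factors, and r = -0.72 (rho = -0.77) with Cish, a suppressor of cytokine signalling that growth hormone induces. Nr1i3 had r = 0.76 (rho = 0.71) with Cyp2c11, the male-specific cytochrome P450 of rat liver. Rarb had r = 0.76 (rho = 0.74) and Esrrg r = -0.75 (rho = -0.77) with Fkbp5. Each of the 5 pairs had the same sign in 6 of 6 groups, and the r without the 2 animals farthest from the median of the receptor lay between 0.69 and 0.78 in size.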
